A study of Homo sapiens with 4 samples.

Results

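The genes described here are those of human chromosome 18, compared between the breast cancer line MDA-MB-231 and its brain metastatic derivative MDA-MB-231Br and read in their order along the chromosome. A gene was a member when its symbol in the deposited expression table mapped to chromosome 18 in the GENCODE annotation and its mean over the 4 libraries was at least 10 normalized counts. This gave 216 members of 15279 named genes, of which 62 lie on the short arm and 154 on the long arm. A further 9 genes of the chromosome had a lower mean and were left out. The chromosome was chosen by expression values of these same libraries, so its medians and counts describe it and are no independent evidence about it. The arms were divided at the longest stretch without an annotated gene, 5.62 Mb from 15330283 to 20946905 on GRCh38, against 1.32 Mb for the next longest.

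The group MDA231-P consisted of 2 libraries of MDA-MB-231, a triple-negative human breast cancer line, and the group MDA231-BR of 2 libraries of MDA-MB-231Br, a derivative of it with tropism for the brain. Cells of both groups were grown in culture in DMEM with 10% FBS, and the labels name no other agent or genetic change in either. The column headers give only the line, so the libraries are called A and B in column order, and both groups are a single cell line each. Separate cultures are not stated for the A and B libraries, and p-values here rest on a spread that could be technical alone. Reads on named genes ranged from 25835225 to 30771290 per library, and 374636 to 434134 of them fell on the members. Markers of the line were high, with VIM at 38423 to 119552 and AXL at 27395 to 38317 normalized counts, while the epithelial marker CDH1 stood at 2.56 to 14.8. The estrogen receptor gene ESR1 was at 0 and 1.94 in MDA231-P and 6.72 and 26.5 in MDA231-BR. ERBB2, listed as low in a triple-negative line, was at 955 to 1239, against a median level of 666 over all tested genes. EPCAM was at 91.2 to 398, the endothelial gene CDH5 at 0 to 4.80, a further endothelial gene, PECAM1, at 70.8 to 146 in MDA231-P and 193 to 218 in MDA231-BR, and MAP2, a neuronal marker, at 24.7 to 29.1 in MDA231-P and 108 to 137 in MDA231-BR. The part of these markers in the differences given here was not tested.

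Chromosome 18 is one of the gene-poor human autosomes. Its long arm holds the desmosomal cadherin cluster, a cluster of clade B serpins (intracellular protease inhibitors), the SMAD genes that carry TGF-beta signals to the nucleus, and BCL2, the anti-apoptotic gene first found at a lymphoma translocation. Reading expression in order of gene position shows whether neighbouring genes differ together between cell lines.

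The promoters of 3 members are shown because these genes had the largest called increase on each arm and the largest called decrease of the chromosome. Each sequence is from RefSeq (GRCh38.p14) and runs 5′ to 3′ on the strand of the gene, from 250 bases before the transcription start to 50 bases after it. Capitals mark every CG dinucleotide, the site of DNA methylation, and the motif TATAAA, which was searched on both strands of all promoters.
EPB41L3 promoter, chr18:5628942-5629241, minus strand, 30 CG: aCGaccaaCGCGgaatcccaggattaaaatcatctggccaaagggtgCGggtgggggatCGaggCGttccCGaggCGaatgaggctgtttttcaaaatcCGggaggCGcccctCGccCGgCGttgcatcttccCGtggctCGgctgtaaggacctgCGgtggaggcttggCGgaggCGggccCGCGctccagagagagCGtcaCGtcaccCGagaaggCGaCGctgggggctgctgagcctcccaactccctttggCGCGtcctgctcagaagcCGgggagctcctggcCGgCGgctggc
SERPINB2 promoter, chr18:63887455-63887754, plus strand, 1 CG: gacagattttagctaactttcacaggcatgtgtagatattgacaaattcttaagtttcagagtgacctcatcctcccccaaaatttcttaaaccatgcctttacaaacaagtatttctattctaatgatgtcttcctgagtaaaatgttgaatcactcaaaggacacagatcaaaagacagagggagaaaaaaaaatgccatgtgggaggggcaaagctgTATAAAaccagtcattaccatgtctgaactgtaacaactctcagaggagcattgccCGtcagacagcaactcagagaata
LIPG promoter, chr18:49561807-49562106, plus strand, 23 CG: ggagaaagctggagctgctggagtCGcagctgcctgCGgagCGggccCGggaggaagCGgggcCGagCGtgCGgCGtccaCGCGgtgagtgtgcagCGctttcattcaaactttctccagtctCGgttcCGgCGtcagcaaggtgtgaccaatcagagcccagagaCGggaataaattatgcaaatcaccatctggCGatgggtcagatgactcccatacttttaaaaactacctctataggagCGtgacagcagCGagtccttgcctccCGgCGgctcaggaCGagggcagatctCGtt
The promoters of EPB41L3 and LIPG are rich in CG, whereas that of SERPINB2 has a single CG and carries TATAAA. Of the 216 members, 157 had an entry in the promoter table, with a median of 28 CG in 300 bases against 14 over all 27305 promoters. The medians of the arms were close, at 30 for the short and 27.5 for the long arm. TATAAA lay in 8 of the 157 promoters (5.10%) and in 12.0% of all promoters. Fewer than 10 CG were found in 22 members (14%), compared with 44.0% of all promoters. Members had to reach a minimum of expression, whereas the promoters as a whole did not, and expressed genes of other chromosomes were not compared. These contrasts therefore cannot be read as particular to chromosome 18. A matched motif is a description of these letters and not of a binding site.

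Members of chromosome 18 were more often higher than lower in MDA231-BR, and the excess lay on the long arm. Of the 216 members, 45 rose and 9 fell in MDA231-BR at a Benjamini-Hochberg adjusted p below 0.05 (limma on log2 of the normalized count plus 1), and 162 did not pass. The short arm held 7 of the 9 decreases, including the BMP modulator TWSG1 and the chromatin protein SMCHD1, and the long arm held 41 of the 45 increases, including ZNF521, CCBE1 and SERPINB2. Among all 14424 genes tested, 14.4% passed in either direction, 8.61% higher and 5.8% lower. The corresponding shares were 20.8% higher and 4.17% lower among all members, 6.45% and 11.3% on the short arm, and 26.6% and 1.30% on the long arm. The rule that chose the chromosome used this contrast, so these shares are printed side by side and nothing further is read from them.

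The median log2 difference of the members, MDA231-BR minus MDA231-P, was 0.30, against 0.01 over all tested genes. Chromosome 18 ranked second from the top among the 23 chromosomes, after X (0.41) and just ahead of chromosome 4 (0.29). At the other end stood chromosomes 7 (-0.30), 9 (-0.30) and 21 (-0.38). The long arm alone, at 0.57, lay above the median of every whole chromosome, and the short arm alone, at -0.38, lay beside the lowest. Whole chromosomes mix their arms, and the arms of other chromosomes were not measured separately, so the arms are not ranked among arms. Members also had a lower GC content, with a median over longest transcripts of 43.3% against 47.3% over all tested genes; after a loess correction of each library for GC and transcript length the long-arm median was 0.44 and the short-arm median -0.37.

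**Figure D1:**
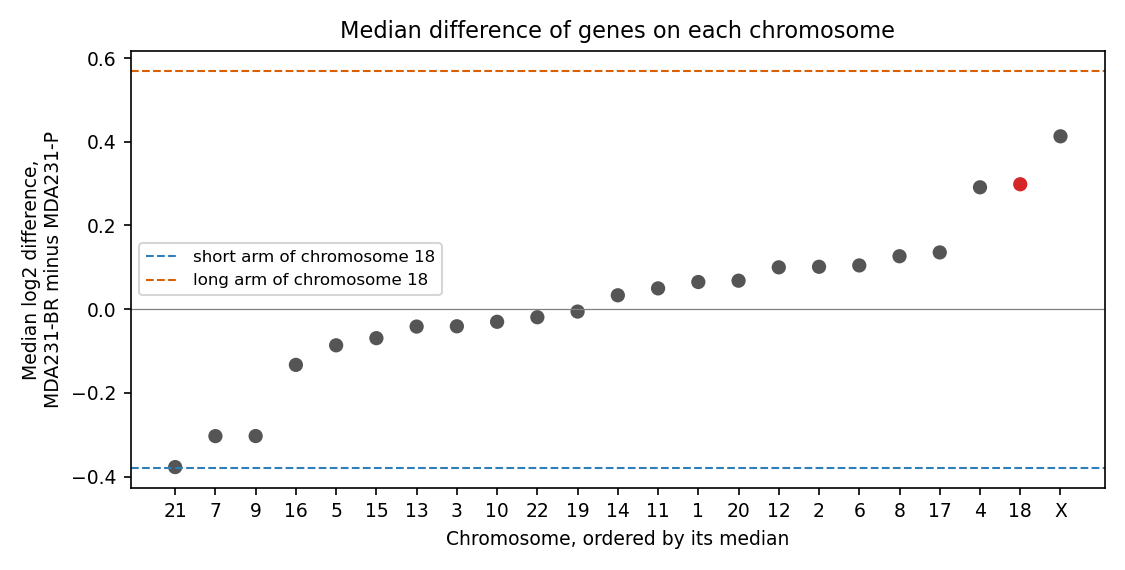
Each point is the median log2 difference (MDA231-BR minus MDA231-P, log2 of the normalized count plus 1) of the tested genes of a chromosome, ordered by that median. Chromosome 18 is in red at 0.30, and dashed lines give its arms, the long arm at 0.57 above all points and the short arm at -0.38.

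The counts of called members depended on the library left out. Without MDA231-P A, 12 members passed as higher and 2 as lower, and without MDA231-P B 11 and 1. Without MDA231-BR A, 74 passed as higher and 28 as lower, and without MDA231-BR B 51 and 15. The calls over all tested genes moved as well, from 2079 with 4 libraries to 421, 429, 5257 and 3147 in the same order. Whichever library was left out, 11 members passed, namely EPB41L3 and ARHGAP28 on the short arm and ZNF521, DSC2, DTNA, MAPRE2, LIPG, CCBE1, TNFRSF11A, SERPINB2 and SERPINB8 on the long arm. None of the 7 short-arm decreases was among them: each lost its call without MDA231-P B, and TWSG1 was the single one that passed without MDA231-P A (adjusted p = 0.0426, limma). All 54 called members also passed edgeR's quasi-likelihood test and DESeq2 on the recovered reads. DESeq2 called 16 members lower, the GC and length correction 22, and the fit without a filter on low genes called 13 higher and 0 lower.

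The arms exchanged rank in their share of the RNA. In the libraries MDA231-P A and B, short-arm members took 0.753% and 0.786% of all reads on named genes, and in MDA231-BR A and B 0.598% and 0.513%. Long-arm members took 0.658% and 0.673% in MDA231-P, and 0.927% and 0.937% in MDA231-BR. The ratio of long-arm to short-arm reads was thus 0.873 and 0.856 in MDA231-P and 1.55 and 1.82 in MDA231-BR, and the groups did not overlap in any of the 3 measures. Because the RNA is from bulk cultures, fewer cells with a transcript and less of it per cell cannot be told apart.

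**Figure D2:**
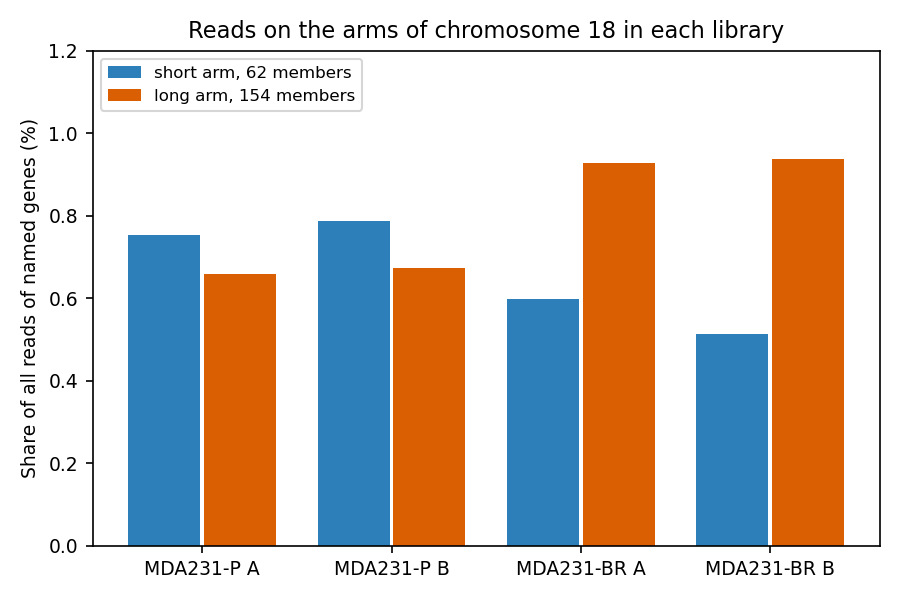
Bars show the share of all reads on named genes, in percent, that fell on short-arm and long-arm members in each of the 4 libraries. The short arm has the taller bar in both MDA231-P libraries (0.753% and 0.786%) and the long arm in both MDA231-BR libraries (0.927% and 0.937%).

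Each MDA231-BR library showed the difference between the arms. Relative to the MDA231-P mean, the median of short-arm members was -0.25 in MDA231-BR A and -0.36 in MDA231-BR B, and that of long-arm members 0.50 and 0.58. The MDA231-P libraries differed from each other by a median of 0.12 on the short arm and 0.05 on the long arm. On the short arm 43 of 62 members had a negative difference, and on the long arm 122 of 154 had a positive one. Both MDA231-BR libraries lay below both MDA231-P libraries for 34 short-arm and 17 long-arm members, a pattern found in 29.7% of all tested genes. Both lay above for 8 short-arm and 102 long-arm members, compared with 31.7% of all tested genes. Without MDA231-BR B the short-arm median was -0.25, which is the value of MDA231-BR A given above and no further result.

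The differences followed the position along the chromosome in a few broad steps. In windows of 15 consecutive members the median log2 difference was negative in 40 of the 48 windows within the short arm and positive in 135 of the 140 within the long arm. The medians ran from -0.68 to 0.15 on the short arm and from -0.04 to 1.24 on the long arm, while the MDA231-P libraries differed from each other by -0.19 to 0.28 in the same windows. For comparison, 13845 windows of 15 genes on the other chromosomes had a 5th to 95th percentile range of -0.59 to 0.64. Of those, 0.152% reached the highest value of chromosome 18 and 3.20% its lowest, and they ran from -1.37 to 1.86. The extremes of a chromosome chosen by this contrast are set beside single windows here, so these shares do not measure rarity. Windows overlap, so neighbouring medians are not independent.

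**Figure D3:**
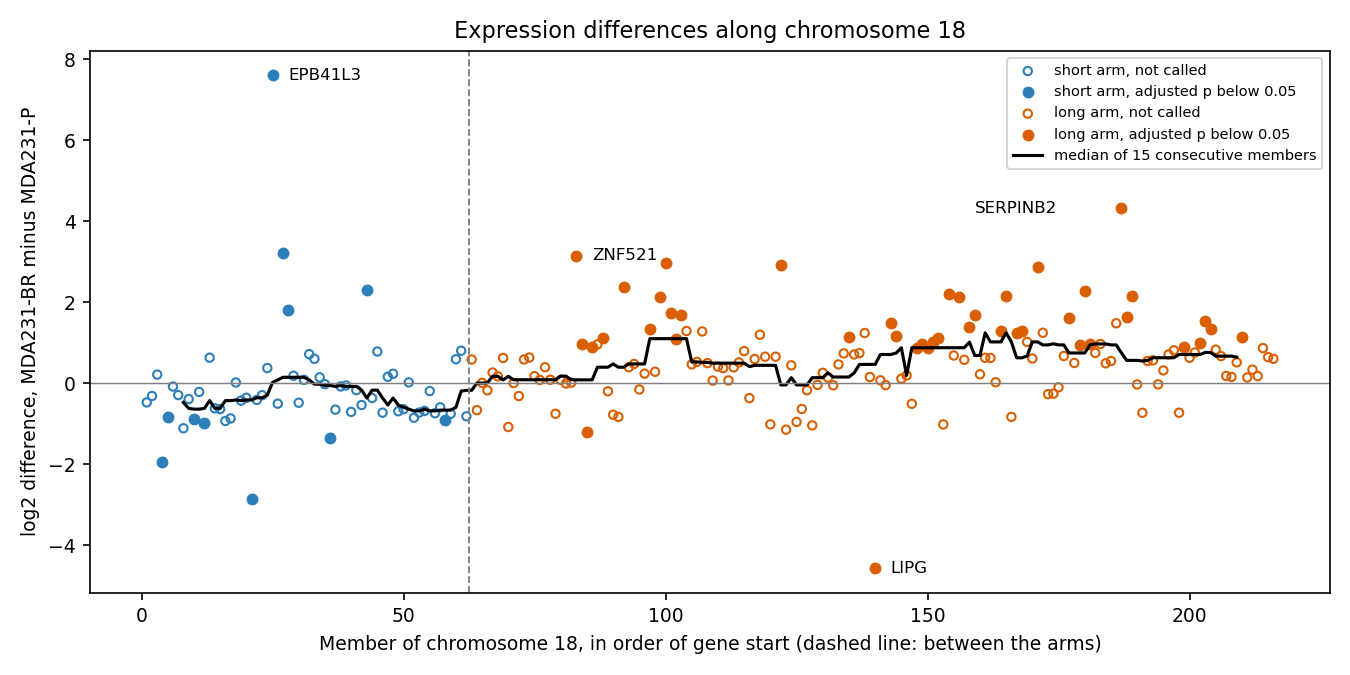
Points are the 216 members in order of gene start, with the log2 difference MDA231-BR minus MDA231-P on the vertical axis; filled points passed an adjusted p below 0.05, blue is the short and orange the long arm. The black line is the median of 15 consecutive members, which lies mostly below 0 on the short arm and reaches 1.24 on the long arm.

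The lowest windows were at the centromeric end of the short arm, and windows near its distal end were nearly as low. From MPPE1 at 11.88 Mb to RNMT at 13.73 Mb the window median was -0.68, with -0.54 in MDA231-BR A and -0.58 in MDA231-BR B. This window holds AFG3L2 (a mitochondrial protease), PSMG2 (a proteasome assembly chaperone), SEH1L (a nuclear pore protein), CEP76 and CEP192 (centrosome proteins) and RNMT (the mRNA cap methyltransferase), whose log2 differences ranged from -0.85 to -0.60 without passing the test. FAM210A, which encodes a mitochondrial protein, was the single member of the window that passed. PTPN2, a tyrosine phosphatase, and SPIRE1, an actin nucleator, were at -0.19 and 0.02, and the sign of SPIRE1 turned under other scalings and with either MDA231-P B or MDA231-BR B left out. MPPE1 itself, at 0.78, and the tubulin gene TUBB6, at 0.23, did not pass.

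The highest windows lay in separate stretches of the long arm. From RAB27B at 54.72 Mb to ZNF532 at 58.86 Mb the window median was 1.24, with 1.03 in MDA231-BR A and 1.06 in MDA231-BR B, and 8 of its 15 members rose. Those were RAB27B, TCF4, WDR7, ONECUT2, NEDD4L, ALPK2, MALT1 and ZNF532. Among them stood members that did not pass, such as FECH, the last enzyme of heme synthesis (0.22), TXNL1, a thioredoxin-like protein (0.58), and NARS, the asparaginyl-tRNA synthetase (0.63). ATP8B1, a phospholipid flippase, was at 0.02, and its sign turned under other scalings and without MDA231-BR A. This neighbourhood held differences from 0.02 for ATP8B1 to 2.20 for RAB27B, with a single negative member, the noncoding AC104971.1. The other stretch was nearer the centromere, where windows between CDH2 at 27.95 Mb and RPRD1A at 35.98 Mb had a median of 1.10, with 0.75 in MDA231-BR A and 1.18 in MDA231-BR B. The increases there were those of DSC2, RNF125, GAREM1, DTNA, MAPRE2, ZNF397 and ZSCAN30.

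Between these extremes the long arm was not uniform. In contiguous stretches of 10 Mb, the median was 0.08 from ROCK1 to ARIH2P1 (29 members, 20 to 30 Mb), 0.51 from DSC2 to RPL7AP66 (29 members), 0.14 from PIK3C3 to MYO5B (22 members) and 0.97 from MBD1 to NFE2L3P1 (31 members). It was 0.75 in the next stretch (19 members) and 0.63 in the one after (21 members). The stretch from MBD1 to NFE2L3P1 held 16 of the 41 long-arm increases. The short arm gave -0.34 from USP14 to VAPA (40 members) and -0.57 from NAPG to LINC01444 (22 members). Both MDA231-BR libraries had the sign of the median in each of these stretches.

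**Figure D4:**
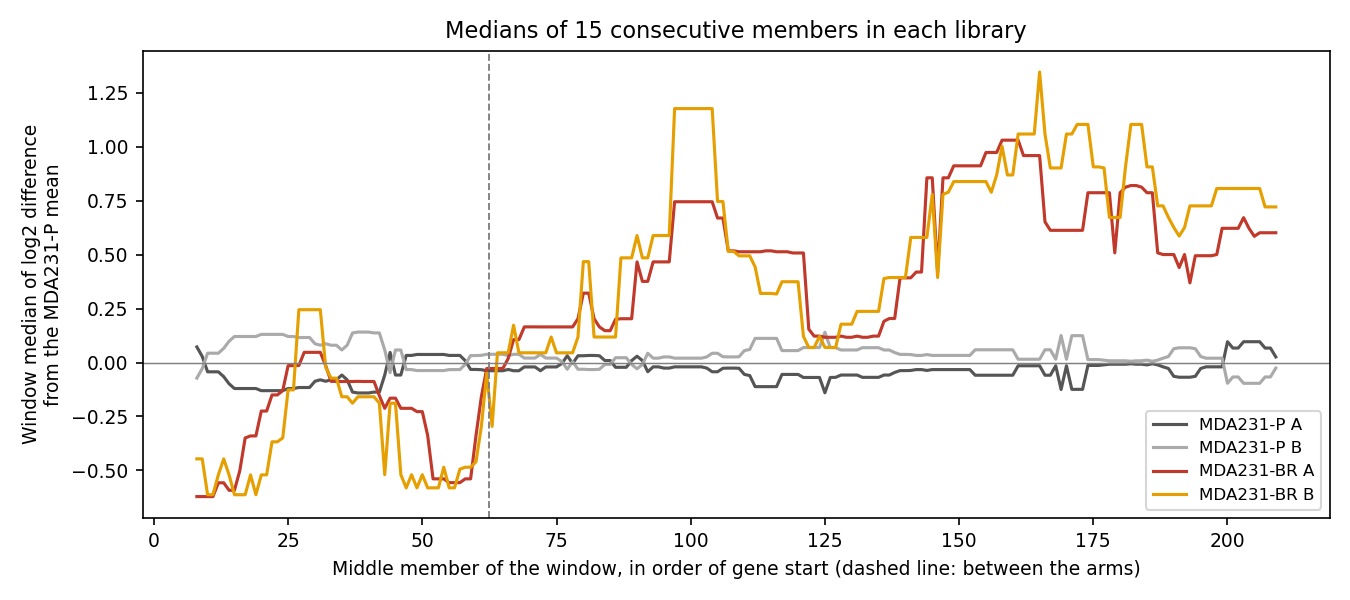
Lines give, for each of the 4 libraries, the median over 15 consecutive members of the log2 difference from the MDA231-P mean, against the middle member of the window. Both MDA231-BR lines are above 0 in all 140 windows of the long arm, and both lie below 0 in 43 of 48 windows of the short arm.

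The 7 short-arm genes that fell were TWSG1, SMCHD1, TYMS, TYMSOS, METTL4, FAM210A and AP002478.1. TWSG1, a secreted modulator of BMP ligands at 9.33 Mb, had 11052 and 15817 normalized counts in MDA231-P A and B and 5296 and 5006 in MDA231-BR A and B. SMCHD1, a chromatin protein of X inactivation, had 9935 and 8140 against 3835 and 5371. TYMS, the thymidylate synthase that makes the thymidine nucleotide for DNA synthesis, had 8609 and 7735 against 5043 and 4158. In these genes each MDA231-BR library lay below each MDA231-P library. The log2 differences were -1.36 ± 0.246 (SE, adjusted p = 0.0108, limma) for TWSG1, -0.99 ± 0.252 (0.0370) for SMCHD1 and -0.83 ± 0.223 (0.0432) for TYMS. TYMSOS, the antisense transcript beside TYMS, stood at 247 and 324 against 122 and 43.4, a difference of -1.94 (-2.67 without MDA231-BR A and -1.21 without MDA231-BR B). TYMS shares 46.6% of its exonic bases with other genes and TYMSOS 38.4%. The span of ENOSF1, on the opposite strand and at -0.08, also overlaps that of TYMS. Without a stated strand setting, reads on the shared bases cannot be assigned to a gene with certainty. METTL4, an RNA adenine methyltransferase, fell by 0.88 (2093 and 2400 against 1236 and 1204), and FAM210A fell by 0.92 (2758 and 3205 against 1633 and 1515). The remaining short-arm decrease, the noncoding AP002478.1, was near the floor at 14.5 and 67.9 against 2.88 and 4.24, and ranged from -3.93 to -1.78 with a library left out.

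Of the 32 short-arm members at high level, 25 had a negative difference and 7 a positive one, and 26 of them did not pass. Per kilobase of transcript, the myosin light chain genes MYL12B and MYL12A were the most abundant members of both lines, at 20124 and 9810 normalized counts per kilobase in MDA231-P and 11241 and 5525 in MDA231-BR. MYL12B had 21291 and 28979 normalized counts in MDA231-P and 17548 and 10532 in MDA231-BR, a log2 difference of -0.87 (adjusted p = 0.0908, limma). MYL12A had 10590 and 13524 against 9391 and 4189, a difference of -0.93 (0.127). The lines did not overlap for either gene, but the MDA231-BR libraries stood far apart, and reads of these near-identical paralogs can be split by the counting. VAPA, an endoplasmic reticulum contact protein, differed by -0.71 and USP14, a proteasome deubiquitinase, by -0.47. RAB31 (-0.06), TGIF1 (0.02), the receptor phosphatase PTPRM (0.18) and TUBB6 (0.23) were nearer to 0, the last 3 with a positive sign.

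Of the 4 short-arm genes that rose, 3 lie close together on the distal part of the arm. EPB41L3 (chr18:5392381-5630700, GRCh38) encodes the protein 4.1B, which links membrane proteins to the actin cytoskeleton. It had 21.3 and 25.2 normalized counts in MDA231-P A and B and 6504 and 3385 in MDA231-BR A and B. This was a 212-fold ratio of means and a log2 difference of 7.60 ± 0.353 (adjusted p = 8.62e-05, limma), the largest of all members. ARHGAP28 had 15.4 and 21.3 against 156 and 201, a difference of 3.22. LAMA1, the laminin alpha 1 chain of basement membranes, had 69.1 and 68.9 against 186 and 317, a difference of 1.80 (adjusted p = 0.0162). All 3 genes start between 5.39 and 6.94 Mb, and the windows that hold all of them had medians from -0.41 to 0.15, the latter the highest of the short arm. GNAL, a stimulatory G protein alpha subunit at 11.69 Mb, had 23.9 and 29.1 against 180 and 99.6, a difference of 2.30 (adjusted p = 0.0118, limma). It shares 28.1% of its exonic bases with other genes. The calls of LAMA1 and GNAL were lost without MDA231-P A (0.116 and 0.105) and without MDA231-P B (0.141 and 0.0845).

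**Figure D5:**
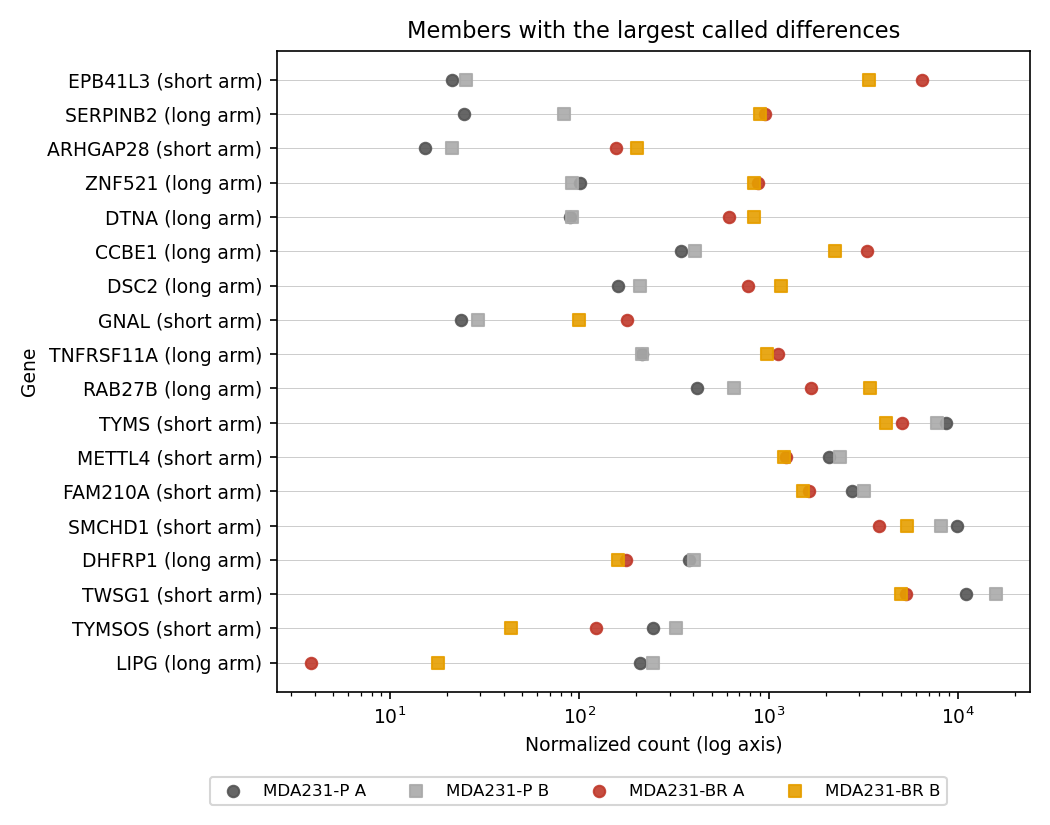
Normalized counts of 18 members in the 4 libraries on a log axis, showing the 10 largest increases and the 8 decreases among called members with a mean of at least 100 in the higher line. EPB41L3 goes from 21.3 and 25.2 to 6504 and 3385, LIPG from 209 and 245 to 3.84 and 18, and in every row the lines do not overlap.

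On the long arm, the desmosomal cadherin DSC2 and the clade B serpins SERPINB2 and SERPINB8 were among the genes that rose. Of 3 cadherin members, DSC2 (desmocollin 2) rose while DSG2 (desmoglein 2) and CDH2 (N-cadherin) did not pass. DSC2 had 160 and 210 normalized counts in MDA231-P and 775 and 1171 in MDA231-BR, a log2 difference of 2.37 ± 0.306 (adjusted p = 0.00295, limma). DSG2 was far more abundant, at 1030 and 1364 normalized counts per kilobase in the lines against 15 and 78.9 for DSC2, and differed by 0.39. CDH2 was barely detected, at 12.8 and 14.6 against 10.6 and 5.30, which makes its difference of -0.78 uncertain. Of the 3 serpin members, SERPINB2 and SERPINB8 rose and SERPINB7 did not pass. All cadherin and serpin members lie on the long arm, where 26.6% of all members rose, against 8.61% of all tested genes.

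SERPINB2 (chr18:63871692-63903890, GRCh38), whose product PAI-2 inhibits urokinase, had 24.7 and 83.4 normalized counts in MDA231-P A and B and 961 and 900 in MDA231-BR A and B. The MDA231-BR libraries were close to each other, whereas the MDA231-P libraries stood far apart. The log2 difference was 4.32 ± 0.510 (adjusted p = 0.00208, limma), 3.46 without MDA231-P A and 5.18 without MDA231-P B. SERPINB8, an inhibitor of furin-like proteases, had 480 and 398 against 1557 and 2451, a difference of 2.16. SERPINB7 had 25.6 and 36.9 against 39.4 and 193, so its difference of 1.48 came mostly from MDA231-BR B (0.35 in A and 2.61 in B). HMSD, which lies between SERPINB2 and SERPINB8, rose by 1.64 and shares 12.7% of its exonic bases with other genes.

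Among laminin, matrix and adhesion genes, 2 of 7 rose, LAMA1 and CCBE1, and none fell (list median 0.21). Of the 7, 3 lie on the short and 4 on the long arm, where 6.45% and 26.6% of all members rose. Among all tested genes 8.61% were called higher and 5.8% lower. CCBE1, a secreted protein needed for the growth of lymphatic vessels, had 344 and 409 normalized counts in MDA231-P and 3313 and 2250 in MDA231-BR. Its log2 difference was 2.86 ± 0.272 (adjusted p = 0.000777, limma), and every MDA231-BR value was several times every MDA231-P value. LAMA3, the laminin alpha 3 chain, was at 1238 and 1185 against 964 and 1712, and the lines overlapped. PARD6G, a cell polarity protein and the last member of the long arm, differed by 0.60 without passing.

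Regulators of SMAD signalling moved in both directions. Of 6 members 2 rose, ZNF521 and SMAD4, and TWSG1 fell (list median 0.59). Of the 6, 4 lie on the long arm, where 26.6% of all members rose and 1.30% fell. TWSG1 lies on the short arm, where 6.45% rose and 11.3% fell. Among all tested genes 8.61% were called higher and 5.8% lower. ZNF521, a zinc finger cofactor that binds SMAD proteins, had 101 and 91.2 normalized counts in MDA231-P and 883 and 837 in MDA231-BR, a log2 difference of 3.15 ± 0.268 (adjusted p = 0.000608, limma). It lies at 25.06 Mb, inside the 10 Mb stretch whose median was 0.08. SMAD4, the shared partner of receptor-activated SMADs, had 1074 and 1049 against 1997 and 1899, a difference of 0.88 (0.0358), and lost its call without MDA231-P A (0.197) or MDA231-P B (0.285). SMAD2 differed by 0.46 and the inhibitory SMAD7 by 0.71, in both cases with a wide spread between the MDA231-BR libraries, and TGIF1, a corepressor on the short arm, by 0.02.

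Genes of cell survival and NF-kappaB signalling had a median of 0.97, with 2 of 7 higher and none lower. Of the 7, 6 lie on the long arm, where 26.6% of all members rose and 1.30% fell. Among all tested genes 8.61% were called higher and 5.8% lower. The part of the arm in the counts of this list was not tested. TNFRSF11A, which encodes RANK, the receptor for RANK ligand, had 216 and 213 normalized counts in MDA231-P and 1123 and 977 in MDA231-BR, a log2 difference of 2.28 ± 0.251 (adjusted p = 0.00155, limma). MALT1, the paracaspase that relays antigen receptor signals to NF-kappaB, had 1404 and 1123 against 2767 and 3195, a difference of 1.24 (0.0132, but 0.0717 without MDA231-P A and 0.162 without MDA231-P B). BCL2 had 381 and 242 against 534 and 663; the lines did not overlap, and its difference of 0.97 did not pass (0.0723). PMAIP1, which encodes the pro-apoptotic NOXA, had 2233 and 3258 against 3527 and 11593, so that its difference of 1.25 was 0.39 in MDA231-BR A and 2.10 in B. The phosphatase PHLPP1 differed by 0.75 without passing (0.0970).

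Cytoskeletal genes included 4 increases among 13 members and no decrease (list median 0.23), with EPB41L3 and ARHGAP28 on the short arm and DTNA and MAPRE2 on the long arm. Of the 13, 8 lie on the short and 5 on the long arm, where 6.45% and 26.6% of all members rose. Among all tested genes 8.61% were called higher and 5.8% lower. The part of the arm in the counts of this list was not tested. DTNA, the alpha-dystrobrevin of the dystrophin complex, had 89.6 and 92.2 normalized counts in MDA231-P and 617 and 837 in MDA231-BR, a log2 difference of 2.97 ± 0.291 (adjusted p = 0.000896, limma). MAPRE2, a microtubule end-binding protein, had 654 and 560 against 2026 and 2034, a difference of 1.74. ROCK1, a kinase and the first member of the long arm, had 3989 and 3303 against 4921 and 6032, and its difference of 0.59 did not pass.

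In membrane traffic, 2 of 21 members rose and none fell (list median 0.24), a share of increases close to the 8.61% of all tested genes. It was below the 26.6% of the long arm, which holds 17 of the 21 members. RAB27B, a GTPase of vesicle secretion, had 420 and 656 normalized counts in MDA231-P and 1686 and 3438 in MDA231-BR, a log2 difference of 2.20 (adjusted p = 0.00860, limma) that missed the threshold without MDA231-P A (0.0691). WDR7, a protein tied to the vacuolar proton pump, had 316 and 235 against 697 and 720, a difference of 1.38 (0.0152; 0.0763 without MDA231-P A and 0.20 without MDA231-P B). NPC1, the lysosomal cholesterol transporter, was at 0.08 and LMAN1, a cargo receptor of the early secretory pathway, at 0.61, without passing.

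Transcription factors and chromatin readers were the list with the most increases, 13 of 26 members, and none fell. Among all long-arm members 26.6% rose and 79.2% had a positive difference, and 8.61% of all tested genes rose. The part of the arm in the counts of this list was not tested, and the list includes the pseudogene ZNF271P. All 26 differences were positive, from 0.15 for NFATC1 to 2.91 for SETBP1, with a median of 0.96 (0.97 in MDA231-BR A and 1.04 in B), and 24 of the 26 lie on the long arm. TCF4, a basic helix-loop-helix factor, had 28.2 and 34 normalized counts in MDA231-P and 145 and 132 in MDA231-BR, a log2 difference of 2.13. ONECUT2, a homeodomain factor, had 177 and 131 against 446 and 541, a difference of 1.68 (adjusted p = 0.00965, limma). The neighbours MBD1, a reader of methylated CpG, and CXXC1, a reader of unmethylated CpG, had 688 and 536 against 1561 and 1883, and 348 and 280 against 710 and 692. MBD2, a further methyl-CpG reader, rose by 0.88, TSHZ1 by 1.53 and ZNF516 by 1.34. The neighbouring zinc finger genes ZNF397 and ZSCAN30 rose by 1.10 and 1.68. Of the 13, all lost their calls without MDA231-P B, and MBD1 was the single one that passed without MDA231-P A (0.0491). SETBP1 was low, at 5.97 and 2.91 against 24.0 and 60.4, and ranged from 2.26 without MDA231-BR B to 3.56 without MDA231-BR A.

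Of 15 signalling genes, 6 rose and none fell (list median 0.63). Of the 15, 13 lie on the long arm, where 26.6% of all members rose. NEDD4L, a ubiquitin ligase that targets sodium channels, was the most abundant member of MDA231-BR by normalized count. It had 6547 and 5478 in MDA231-P and 17021 and 12479 in MDA231-BR, a log2 difference of 1.28 ± 0.246 (adjusted p = 0.0137, limma). ALPK2, an alpha-kinase, had 113 and 94.1 against 495 and 434, a difference of 2.15, and GAREM1, an adaptor of the EGF receptor, had 39.2 and 41.7 against 185 and 178, a difference of 2.14. The ubiquitin ligases RNF152 and RNF125 rose by 1.60 and 1.33. None of the 6 passed without MDA231-P B, and without MDA231-P A only ALPK2 did (0.0333).

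The lists of RNA processing, metabolism and cell division had the lowest medians of the gene lists. Over all tested genes, 8.61% were called higher and 5.8% lower. Among long-arm members 26.6% were higher and 1.30% lower, and among short-arm members 6.45% and 11.3%. The long arm holds 13 of the 16 members of RNA processing and 15 of the 22 of metabolism. The part of the arm in the counts of these lists was not tested. In RNA processing 2 of 16 members rose, the translation factor CTIF (1.15) and the RNA-binding ubiquitin ligase MEX3C (0.97), with a list median of 0.16. The ribosomal protein gene RPL17, at 0.15, shares 35.3% of its exonic bases with other genes. In mitochondria and metabolism 2 of 22 members rose, the dipeptidase CNDP2 (0.88) and the reductase ZADH2 (0.98), and 3 fell, TYMS, FAM210A and LIPG, with the share of increases again close to the 8.61% of all tested genes. ATP5F1A, a subunit of ATP synthase and among the most abundant members of both lines by normalized count, was at 16045 and 15293 against 17431 and 11071, and the lines overlapped. The cell division list had the only negative median, -0.32 over 17 members. Of the 17, 7 lie on the short arm, whose members had a median of -0.38, and 10 on the long arm. Its increases were POLI (a translesion DNA polymerase, 1.01), C18orf54 (1.12) and CTDP1 (a phosphatase of RNA polymerase II, 1.15), all on the long arm. Its decreases were METTL4 and SMCHD1, both on the short arm, given above as an RNA methyltransferase and a chromatin protein. NDC80, CEP76, CEP192, HAUS1 and SKA1 of this list did not pass. The long-arm increases named here lost their calls without either MDA231-P library, and TYMS also missed the threshold without MDA231-BR B (0.0628).

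Against the direction of the long arm, LIPG and DHFRP1 fell. LIPG (chr18:49560699-49599182, GRCh38) encodes endothelial lipase, which cleaves phospholipids of high-density lipoprotein. It had 209 and 245 normalized counts in MDA231-P A and B and 3.84 and 18 in MDA231-BR A and B, which differ from each other at a low count. The log2 difference was -4.57 ± 0.626 (adjusted p = 0.00359, limma), -3.58 without MDA231-BR A and -5.55 without MDA231-BR B. DHFRP1, a processed copy of the dihydrofolate reductase gene, had 378 and 404 against 176 and 161, a difference of -1.21 (0.0246), and lost its call without MDA231-P A (0.181) or B (0.287). HAUS1, an augmin subunit of the spindle, was at 1944 and 2921 against 1480 and 905, a difference of -1.04 that did not pass (0.0631).

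Pseudogenes of the long arm mostly did not have the sign of its other genes. Over the 13 pseudogenes of the long arm the median log2 difference was -0.64 and 11 were negative, against 0.60 and 19 negative among its 131 protein-coding members. On the short arm the medians were -0.45 over 6 pseudogenes and -0.29 over 45 protein-coding members. Reads of processed pseudogenes cannot be told apart with certainty from those of their parent genes, most of which lie on other chromosomes, so these values are uncertain. DHFRP1 was the only pseudogene that passed, and MTCO2P2 and ZNF271P were the positive ones on the long arm (0.74 and 0.47).

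The size of the long-arm difference varied with expression level. When the members were divided by mean level into low, middle and high classes of equal size, the 66 long-arm members of the middle class had a median of 0.80 and 28 of them rose (42.4%). The 40 of the high class had a median of 0.45 with 6 higher (15%), and the 48 of the low class 0.15 with 7 higher (14.6%) and 2 lower. Over all tested genes in the same ranges of level, 9.72% were called higher in the middle, 5.79% in the high and 9.95% in the low range. On the short arm the 32 members of the high class had a median of -0.48 and the 24 of the low class -0.19. The part of level in these differences was not tested.

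Genes that share a promoter region had close values in some pairs and not in others. Counted here were the 8 pairs of members that start within 1 kb of each other in opposite directions without overlapping. Pairs that overlap at their starts were left out, such as SPIRE1 and PSMG2 (0.02 and -0.85) and FAM210A and RNMT (-0.92 and -0.76). Of the 8 pairs, METTL4 and the kinetochore gene NDC80 start 2 bases apart. METTL4 fell by 0.88, while NDC80 stood at 5172 and 4455 normalized counts in MDA231-P and 4125 and 4140 in MDA231-BR, a log2 difference of -0.22 that did not pass. ZSCAN30 and ZNF271P, 37 bases apart, differed by 1.68 and 0.47. ABHD3 and MIB1, 152 bases apart, had the closest values of the 8 pairs, at 0.26 and 0.17. Differences within pairs were not tested.

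Members just above the minimum carried little information. CDH2, with a mean of 10.8, and LINC00470, with 11.5, were the lowest members, and KRT18P8 (8.07) and LDLRAD4 (6.62) the highest of the genes left out. LINC00470 had 4.27 and 29.1 normalized counts in MDA231-P and 1.92 and 10.6 in MDA231-BR, and its difference of -1.11 turned to 0.14 without MDA231-P B. All 216 members passed the filter on low counts, and none had a line without reads. With members restricted to a mean of at least 200, the medians were -0.47 on the short and 0.62 on the long arm.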

How the data were processed

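RNA was extracted with a mirVana kit, per the labels' protocols, and sequenced from 2 libraries of each line. Reads were processed with HISAT2, featureCounts and DESeq2 on GRCh37, per the submitters' processing notes, which give no version or strand setting. The deposited table holds a normalized read signal per gene, scaled by the authors. The smallest step of each column gave whole reads for 100% of values, within 0.01 reads, and edgeR's quasi-likelihood test on these recovered reads, an added alternative, called 2228 genes. The 67 rows without a name (0.031% to 0.0369% of reads) were left out, and 0 value columns were unused. Genes passing filterByExpr (minimum count 10, total 15) were fitted together with limma 3.58.1 on log2(value + 1), which understates changes of low genes, and adjusted over all 14424. edgeR 4.0.16, DESeq2 1.42.0, R 4.3.3 and Python 3.11.15 were used, after tests on simulated data. Order, arms, overlap, GC and length came from GENCODE 29 on GRCh38 by symbol (15227 of 15279 rows matched), since no GRCh37 annotation was used here.

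Members and gene lists were chosen with earlier results of these data known. Genes were named by rule: the 10 largest increases and decreases among called members with a mean of at least 100 in the higher line and no overlap, up to 2 per direction in each list, members of the extreme windows, the most abundant members, those beside the minimum, and the ends of each arm. Other genes named were chosen after their values were seen. Replicate pairs were not copies, with chi-square per degree of freedom of 60.7 in MDA231-P and 122 in MDA231-BR.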

Additional observations from a re-analysis of the deposited data

How the results depend on the processing

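The arm medians kept their signs under every scaling, test, pseudocount, filter, library left out and member set tried. The 2 long-arm decreases became 4 with DESeq2, 6 with the GC and length correction, 0 without a filter and 1 to 9 with a library left out, and the 4 short-arm increases 2 without a filter and 2 to 8 with a library left out. DESeq2 called 16 members lower, 12 on the short arm, and gave a highest window of 1.21 (edgeR 1.21, TMM 1.22, library total 1.21). The GC and length correction called 22 lower, 16 on the short arm, with medians of 0.24 for all members and 0.44 for the long arm and a highest window of 1.03. Without a filter on low genes 13 members were higher, 11 on the long arm, and 0 lower, 0 on the short arm. The median of all members was 0.26 with scaling to the library total, 0.39 with a mean of at least 50 for genes or members, 0.41 with a mean of at least 200, 0.47 for protein-coding members and 0.39 without pseudogenes and mostly overlapped genes (an alternative chosen after seeing the data), which gave a highest window of 1.28. The short-arm median was -0.47 with a mean of at least 200 and -0.29 for protein-coding members. Window extremes were 1.33 and -0.83 for 9 members, 1.01 and -0.60 for 25, 0.97 and -0.57 for 10 Mb, and the lowest was -0.64 with a pseudocount of 5. Leaving out each library, with the lone library assumed to vary like the other line's pair, gave 11 to 74 members higher and 1 to 28 lower, 9 to 66 long-arm increases, 0 to 19 short-arm decreases, medians of 0.26 to 0.38, -0.41 to -0.25 (short arm) and 0.48 to 0.61 (long arm), and windows of 1.03 to 1.40 and -0.73 to -0.60; the cause was not tested. ATP8B1 turned negative with TMM (-0.0027), library totals (-0.014), the GC and length correction (-0.22) and without MDA231-BR A (-0.25, against 0.30 without MDA231-BR B). SPIRE1 did so with edgeR (-0.0014), TMM (-0.0059), library totals (-0.017), the correction (-0.24), and without MDA231-P B (-0.095) or MDA231-BR B (-0.17), with 0.21 as its highest value. AP002414.2 became -0.068 without MDA231-BR B, TUBB6 -0.058 without MDA231-BR A (0.52 without B) and LINC00470 0.14 without MDA231-P B (-2.37 without A). Over all alternatives, 705 values of named genes kept direction and call, 71 lost the call, 26 gained it and 13 changed sign. No paired analysis was possible because the columns carry no replicate numbers.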
